A study of Mus musculus with 24 samples.

Results

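The genes described here encode enzymes and membrane proteins of the lysosome. They were chosen by name from a written list of 39 symbols, and all 39 were among the 12091 genes measured. By role they were 10 glycosidases, 7 proteases, 6 genes of lipid handling, 6 membrane proteins, 5 sulfatases, 3 genes of the proton pump and 2 regulators. RNA was sequenced from 24 samples in 8 groups of 3, which formed 4 experiments on the inhibition of pleiotrophin (PTN) in mouse mammary cancer. E0771 is a mammary adenocarcinoma line from C57BL/6 mice that metastasizes poorly. Its subline E0771-LG was grown out of a metastasis in the lung. Cells of each line carried a pLKO vector with either a control sequence against EGFP (shCtrl) or 1 shRNA construct against PTN (shPTN) and were selected in puromycin as separate populations, so that differences that arose during selection and effects of the shRNA cannot be told apart. 4T1 tumors grew from mammary carcinoma cells implanted in 8-wk-old female BALB/c mice, and MMTV-PyMT tumors arose in FVB/N mice whose transgene is driven by the mouse mammary tumor virus promoter. Tumor-bearing mice received the anti-PTN antibody 3B10 or the control IgG C44 at 15 mg/kg per dose, and MMTV-PyMT mice were treated from 8 to 12 wk of age.

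Values for the 12 cell samples and the 6 MMTV-PyMT tumors were log2 CPM, the reads of a gene relative to the library total, and the depth was 15.63 to 21.12 M reads per sample. Values for the 4T1 tumors were on another log2 scale with an unknown depth, taken here as normalized for gene length. They were compared among themselves, though 1 alternative fit took in all 24 samples. In that fit the variance of a gene was estimated over cells and tumors and over both scales. A gene entered the limma test if 3 or more samples of the comparison reached 1 on the linear scale once the sample's minimum was subtracted. All 39 lysosomal genes passed this filter in both tumor models. In the cells 36 passed, and Gm2a, Ctsc and Arsb did not. Gm2a, the activator protein of ganglioside breakdown, had 3, 6 and 0 reads in the E0771 shCtrl samples. The protease Ctsc and the sulfatase Arsb had 0 reads in each of these samples, and a count of 0 allows up to 3 reads, a limit that covers counting error only. Exons of 15 of the 39 genes overlap those of another gene, from 0.694% of the exon bases in Ctsz to 34.4% in Ctsd for a single neighbor, so that some of their reads may belong to it.

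Lysosomes are acidic organelles in which hydrolases break down proteins, glycans and lipids delivered by endocytosis and autophagy. Many of the soluble enzymes are tagged with mannose 6-phosphate in the Golgi and carried to the lysosome by receptors, a proton-pumping ATPase acidifies the lumen, and glycosylated membrane proteins line the inner face of the membrane. TFEB and related factors bind an E-box-like motif in promoters of many lysosomal genes, and cathepsins secreted by tumor cells or macrophages can degrade extracellular matrix.

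The labels were checked first on Ptn, the targeted gene. Ptn read 2.90, 2.18 and 2.28 log2 CPM in E0771 shCtrl and -0.63, 0.25 and 0.53 in E0771 shPTN cells. In the E0771-LG line Ptn read 3.65, 4.51 and 3.74 with shCtrl and 1.42, 0.98 and 1.38 with shPTN. The vectors were separated in both lines, with the lower values in shPTN cells, and the log2 fold changes were -2.40 (SE 0.37, limma adjusted p = 0.00159) in E0771 and -2.71 (SE 0.28, limma adjusted p = 6.30e-05) in E0771-LG cells. Of the 7 epithelial markers, Krt8 and Epcam were expressed in every cell sample, while the epithelial cadherin Cdh1 had at most 7 reads and Krt19 at most 5. Of the 13 macrophage markers, Lyz2, Cd14, Cd68 and Mrc1 had reads in all 12 cell samples, with Lyz2 at 25.4 to 36.9 CPM in E0771 shPTN and Cd14 at 15.8 to 18.8 CPM in E0771-LG shCtrl cells. C1qa, C1qc, Tyrobp and Ms4a7 had 0 reads in all 12 samples, the other 5 had at most 14 in any of them, and the leukocyte marker Ptprc had at most 13.

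Per kilobase of exon, the lysosomal genes of E0771 shCtrl cells were led by Psap, the precursor of the saposins that help enzymes to break down sphingolipids, at 349 ± 13.5 CPM per kb (SD, n = 3). Lamp1, an abundant glycoprotein of the lysosomal membrane, followed at 217 CPM per kb and the cathepsin Ctsz at 201. Psap also had the highest mean in E0771-LG shCtrl cells, at 186 ± 66 CPM per kb (SD, n = 3), although Ctsz (141) and Cd63 (139) led in replicate 1. Psap led in MMTV-PyMT tumors with C44 as well, at 752 ± 115 (SD, n = 3). The exon length was that of all annotated exons of a gene. In CPM not divided by it, Psap still led in E0771 shCtrl cells and in MMTV-PyMT tumors with C44. In E0771-LG shCtrl cells Cd63 then led in replicate 1 (512) and Ctsl in replicates 2 and 3 (798 and 651). In 4T1 tumors with C44 the cathepsin Ctsl had the highest mean on the length-normalized scale of these samples, 3383 against 2762 for Psap, although in C44 tumor 2 Psap (3174) was above Ctsl (2997). Of the genes tested, the transcription factor Tfeb was the lowest in E0771 shCtrl cells at 2 CPM per kb, below Idua, which removes iduronic acid from heparan and dermatan sulfate, at 2.93. The summed level of the 39 genes was 8177, 8311 and 8489 CPM in E0771 shCtrl and 4310, 6283 and 5296 CPM in E0771-LG shCtrl cells. Every E0771-LG shCtrl sample lay below every E0771 shCtrl sample in this sum.

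Since many of these genes differed in the same direction between the lines, their promoters were searched for the E-box CACGTG, which reads the same on both strands, and on both strands for GTCACGTG and TCACGTGA, which contain it. Promoters of 300 bases, 250 before to 50 after the start, were taken from RefSeq (GRCm38.p6) and found for 36 of the 39 genes. A gene was counted if any of its promoters held the letters. CACGTG was present for 13 of these 36 genes (36.1%), for 8.09% of all 27025 genes with a promoter, and in 7.15% of all 32851 promoters of the same length. GTCACGTG was present for 10 (27.8%), for 2.55% of all genes and in 2.25% of all promoters. TCACGTGA was present for 6 (16.7%), for 1.12% of all genes and in 0.974% of all promoters. On other lists the share of genes with CACGTG was 50% for mannose 6-phosphate sorting (8 genes with a promoter), 29.4% for MiT/TFE factors and nutrient sensing (17), 21.4% for autophagy (14), 20.6% for other lysosomal genes (34) and 20% for other pump genes (10). In the same order the share was 50%, 5.88%, 14.3%, 14.7% and 10% for GTCACGTG and 25%, 0%, 7.14%, 14.7% and 10% for TCACGTGA. Of the 21 genes named for the size of their change in a cell comparison, 19 had a promoter and 6 of these held CACGTG, marked by capitals in the sequences shown. They are Naglu (chr11:101069844-101070143, plus strand), Gla (chrX:134600956-134601255, minus strand), Ctsa (chr2:164833523-164833822, plus strand), Mcoln1 (chr8:3500269-3500568, plus strand), Sgsh (chr11:119355461-119355760, minus strand) and Atp6v1a (chr16:44139210-44139509, minus strand). A match is a description of the letters and not a binding site or a cause.
Naglu: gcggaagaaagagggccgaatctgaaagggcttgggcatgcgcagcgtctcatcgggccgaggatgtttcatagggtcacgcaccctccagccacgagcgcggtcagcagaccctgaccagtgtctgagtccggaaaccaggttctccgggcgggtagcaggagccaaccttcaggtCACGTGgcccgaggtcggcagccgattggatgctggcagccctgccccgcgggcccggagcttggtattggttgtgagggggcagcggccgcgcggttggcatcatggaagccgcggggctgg
Gla: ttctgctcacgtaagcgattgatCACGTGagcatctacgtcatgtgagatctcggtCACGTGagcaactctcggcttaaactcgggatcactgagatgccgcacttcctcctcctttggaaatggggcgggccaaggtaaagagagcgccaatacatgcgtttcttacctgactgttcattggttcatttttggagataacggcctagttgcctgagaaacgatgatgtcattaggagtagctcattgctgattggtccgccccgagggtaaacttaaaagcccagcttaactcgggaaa
Ctsa: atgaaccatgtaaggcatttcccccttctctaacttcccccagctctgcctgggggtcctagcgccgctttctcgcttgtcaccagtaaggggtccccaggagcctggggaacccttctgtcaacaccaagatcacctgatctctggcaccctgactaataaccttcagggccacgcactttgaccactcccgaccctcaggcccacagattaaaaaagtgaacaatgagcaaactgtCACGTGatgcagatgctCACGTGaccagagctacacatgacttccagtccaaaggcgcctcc
Mcoln1: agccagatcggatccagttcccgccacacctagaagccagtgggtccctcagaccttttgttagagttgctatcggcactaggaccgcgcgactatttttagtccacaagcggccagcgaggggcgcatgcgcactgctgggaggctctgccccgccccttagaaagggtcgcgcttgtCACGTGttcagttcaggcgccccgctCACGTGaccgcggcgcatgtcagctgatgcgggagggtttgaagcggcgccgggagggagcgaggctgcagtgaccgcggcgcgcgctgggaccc
Sgsh: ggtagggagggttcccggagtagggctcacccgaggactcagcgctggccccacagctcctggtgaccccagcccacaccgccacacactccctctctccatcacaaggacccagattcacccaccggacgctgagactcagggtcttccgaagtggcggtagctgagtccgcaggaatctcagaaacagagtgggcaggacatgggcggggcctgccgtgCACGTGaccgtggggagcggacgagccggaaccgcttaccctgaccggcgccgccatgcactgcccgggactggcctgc
Atp6v1a: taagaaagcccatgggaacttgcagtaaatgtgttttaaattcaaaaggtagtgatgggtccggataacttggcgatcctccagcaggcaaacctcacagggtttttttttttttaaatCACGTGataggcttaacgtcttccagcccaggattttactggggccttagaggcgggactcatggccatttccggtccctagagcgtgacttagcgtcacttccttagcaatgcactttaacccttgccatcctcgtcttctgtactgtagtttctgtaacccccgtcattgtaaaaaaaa

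Gla, Ctsa and Mcoln1 each held 2 copies of CACGTG in this window, and Naglu, Sgsh and Atp6v1a held 1. In the comparison of the lines with shCtrl, 35.3% of all 10411 genes tested were lower in E0771-LG cells, with a median log2 fold change of -0.15. Beside this, 12 of 13 lysosomal genes with the motif were lower, with a median of -0.66, and 15 of 20 without it, with a median of -0.89. In shPTN cells the medians with and without the motif stood in the other order. They were -0.65 with 10 of 13 genes lower and 1 higher, and -0.51 with 13 of 20 lower and 3 higher. Of all 10508 genes tested there, 37.7% were lower and 26.2% higher, with a median of -0.10. In E0771-LG cells with shPTN against shCtrl, 4 of 13 with the motif were higher and 2 lower (median 0.36). Without it 10 of 20 were higher and 1 lower (median 0.40), beside 24.3% and 22.1% of all genes. In E0771 cells 2 of 13 with the motif were higher and 0 lower (median 0.14). Without it 2 of 20 were higher and 3 lower (median 0.10), beside 8.89% and 11.7% of all genes.

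E0771-LG shCtrl cells had lower RNA levels of most lysosomal genes than E0771 shCtrl cells. Of the 36 genes tested, 29 were lower at an adjusted p under 0.05 by limma and 7 did not pass. The count of higher genes was 0 by limma and 0 by voom, and the 30 genes with an unadjusted p under 0.05 were all lower. Over all 10411 genes tested, 35.3% were lower and 19.2% higher. The median log2 fold change was -0.79 for the lysosomal genes and -0.15 for all genes. Quantile and median-of-ratios scaling each moved the median of all genes up by 0.15, and the share of higher among all called genes from 35.3% to 51.4% and 50.1%. Relative to that shift the median of the lysosomal genes was -0.69 and -0.65, with 28 and 25 genes lower and 1 higher in each. The gene called higher was Tfeb after quantile scaling (0.47) and Cd63 after median-of-ratios scaling (0.27). By role, 8 of 10 glycosidases, 5 of 6 proteases, 5 of 5 genes of lipid handling, 5 of 6 membrane proteins, 3 of 4 sulfatases and 3 of 3 genes of the proton pump were lower, and neither regulator passed.

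**Figure D1:**
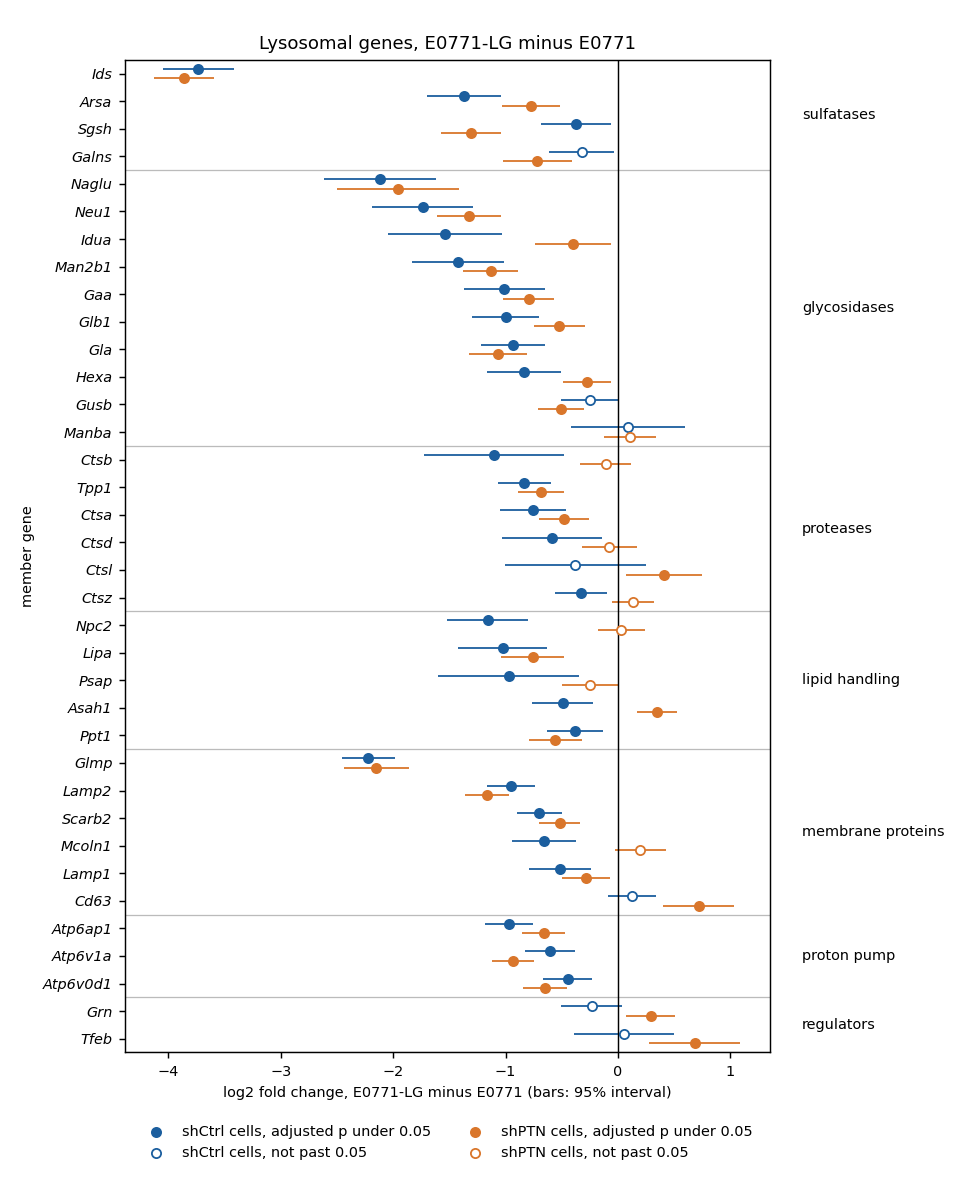
Log2 fold change of each lysosomal gene tested, E0771-LG minus E0771, in cells with shCtrl and in cells with shPTN, grouped by role; bars are 95% confidence intervals and filled points have an adjusted p under 0.05. In shCtrl cells 29 of 36 points are filled and lie below the zero line, with Ids at -3.74.

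The largest difference among the genes tested was in the sulfatase Ids (X, 70343069 to 70365084, minus strand, GRCm38), which removes sulfate from iduronic acid in heparan and dermatan sulfate. Ids read 7.06, 7.26 and 7.17 log2 CPM in E0771 shCtrl and 3.58, 3.13 and 3.57 in E0771-LG shCtrl cells, from 2306, 3126 and 2398 reads and from 207, 171 and 221 reads. All E0771-LG samples were far below all E0771 samples. The log2 fold change was -3.74 (SE 0.14, limma adjusted p = 1.67e-07), or 0.0751 times the E0771 level. In shPTN cells Ids read 7.09, 7.24 and 7.28 in E0771 and 3.26, 3.23 and 3.55 in E0771-LG cells. The lines were again fully separated, with a log2 fold change of -3.86 (SE 0.12, limma adjusted p = 1.28e-08). Of the other sulfatases in shCtrl cells, Arsa, which acts on sulfatide, fell by 1.37 and Sgsh, the sulfamidase of heparan sulfate, by 0.38, and the change of Sgsh did not pass after quantile (-0.08) or median-of-ratios scaling (-0.23), without a filter on low values or in the fit of all 24 samples. Its limma adjusted p was 0.121 and 0.172 without E0771 shCtrl replicates 2 and 3 and 0.081, 0.0793 and 0.0555 without E0771-LG shCtrl replicates 1, 2 and 3. Galns stood at -0.32 (limma adjusted p = 0.0588).

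Among the glycosidases, Naglu removes N-acetylglucosamine from heparan sulfate. Its values were 4.59, 5.31 and 5.12 log2 CPM in E0771 shCtrl and 2.73, 3.26 and 2.68 in E0771-LG shCtrl cells, with no overlap and a log2 fold change of -2.12 (SE 0.22, limma adjusted p = 4.66e-05). The sialidase Neu1 read 5.97, 5.92 and 6.16 in E0771 and 4.12, 4.78 and 3.94 in E0771-LG cells. E0771-LG replicate 2 was the highest of its group for Neu1 and still lay below all E0771 samples, and the log2 fold change was -1.74 (SE 0.20, limma adjusted p = 1.04e-04). Idua read 3.55, 3.73 and 3.59 in E0771 and 1.71, 2.46 and 2.10 in E0771-LG cells, a log2 fold change of -1.53 (SE 0.23, limma adjusted p = 3.28e-04). Man2b1, a mannosidase of glycoprotein breakdown, read 5.94, 6.06 and 6.03 in E0771 and 4.15, 4.97 and 4.63 in E0771-LG cells, a log2 fold change of -1.43 (SE 0.18, limma adjusted p = 1.61e-04). Idua and Man2b1 were lower in every E0771-LG sample than in any E0771 sample. Gaa, Glb1, Gla and Hexa fell by 1.01, 1.00, 0.93 and 0.83. After quantile scaling the log2 fold change was -1.02 for Idua and -0.61 for Gla, and both passed. Gusb (-0.25) and Manba (0.09) did not pass the test, and their groups overlapped.

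Of the membrane proteins, Glmp, a glycosylated protein of the lysosomal membrane, read 6.79, 6.64 and 6.77 log2 CPM in E0771 shCtrl and 4.42, 4.59 and 4.52 in E0771-LG shCtrl cells. The samples within each line were close together and the lines were wide apart, with a log2 fold change of -2.22 (SE 0.11, limma adjusted p = 7.27e-07). Exons of Tmem79 on the opposite strand cover 20.3% of the exon bases of Glmp, and because the use of strand in counting is not given in the sources used here, reads from both genes cannot be told apart. Lamp2 fell by 0.95, the receptor Scarb2, which carries glucocerebrosidase to the lysosome, by 0.70, the cation channel Mcoln1 by 0.66 (0.42 after quantile scaling) and Lamp1 by 0.52. The tetraspanin Cd63 stood at 0.12 (limma adjusted p = 0.307), and its sign turned to -0.02 after quantile scaling.

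The proteases Ctsb, Tpp1, Ctsa, Ctsd and Ctsz fell by 1.10, 0.83, 0.76, 0.58 and 0.33, and the changes of Ctsd (-0.44) and Ctsz (-0.18) did not pass after median-of-ratios scaling. Ctsl stood at -0.38 (limma adjusted p = 0.259) with overlapping groups. In lipid handling, the sterol carrier Npc2 fell by 1.16, the acid lipase Lipa by 1.03, Psap by 0.97, the acid ceramidase Asah1 by 0.49 and the thioesterase Ppt1 by 0.38, and the change of Ppt1 did not pass after quantile (-0.20) or median-of-ratios scaling (-0.23). The accessory subunit Atp6ap1 of the proton pump fell by 0.97, its catalytic subunit Atp6v1a by 0.60 and Atp6v0d1 by 0.45. The regulators Tfeb (0.05) and Grn (-0.23), the precursor of granulins, did not pass the test, and Grn was called lower after quantile scaling (-0.33). The change of Ctsz did not pass in the fit of all 24 samples, nor that of Ctsd with eBayes without trend and robust. Without E0771 shCtrl replicates 1, 2 and 3 the limma adjusted p of Ctsd was 0.078, 0.063 and 0.0767, and without E0771-LG shCtrl replicate 3 it was 0.0568. The log2 fold change of Ctsd was -0.37 without E0771-LG shCtrl replicate 1. The limma adjusted p of Psap was 0.0549 and 0.0573 without E0771 shCtrl replicates 1 and 3, that of Ctsz 0.0997 without replicate 3 and that of Ppt1 0.0585 without replicate 2 of the same group.

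E0771-LG shCtrl replicate 1 was the lowest of its group for 28 of the 36 genes and replicate 2 the highest for 30. Ctsb read 8.04, 9.15 and 8.78 and Psap 8.29, 9.38 and 9.11 log2 CPM in E0771-LG shCtrl cells, whereas the E0771 shCtrl samples lay between 9.65 and 9.83 for Ctsb and between 9.86 and 9.96 for Psap. Even the highest E0771-LG sample was below all E0771 samples for both genes. Of the 13 macrophage markers 4 could be tested between the lines. Cd68, itself a lysosomal membrane protein, and Lyz2 fell by 3.24 and 1.03, whereas Cd14 rose by 1.23. Mrc1 was also called higher, with 59, 91 and 83 reads in E0771-LG against 3, 16 and 5 in E0771 cells, and entered the test through the E0771-LG samples alone. The summed level of the 13 markers was 17, 32.4 and 25.8 CPM in E0771 shCtrl and 25, 27.7 and 26.6 CPM in E0771-LG shCtrl cells, in which Cd14 was the most abundant, and 7 to 9 of the 13 were at 0 in each of these samples. The 2 epithelial markers tested, Krt8 and Epcam, rose by 0.69 and 0.95, and the 7 on the list, led by Krt8, summed to 99.3, 114 and 107 CPM in E0771 and 158, 204 and 164 CPM in E0771-LG cells. Of 4 fibroblast markers tested 2 were higher and 2 lower, and the 6 on the list, led by Pdgfra, summed to 74.8, 101 and 86.3 CPM and 92, 145 and 107 CPM. The adipocyte marker Fabp4 rose by 3.24 (limma adjusted p = 2.36e-05), from 1.16, 1.18 and 1.99 CPM in E0771 to 10.9, 18.3 and 12 CPM in E0771-LG cells, and the neutrophil marker S100a8 (-0.29) did not pass. The part of these markers in the result was not tested.

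**Figure D2:**
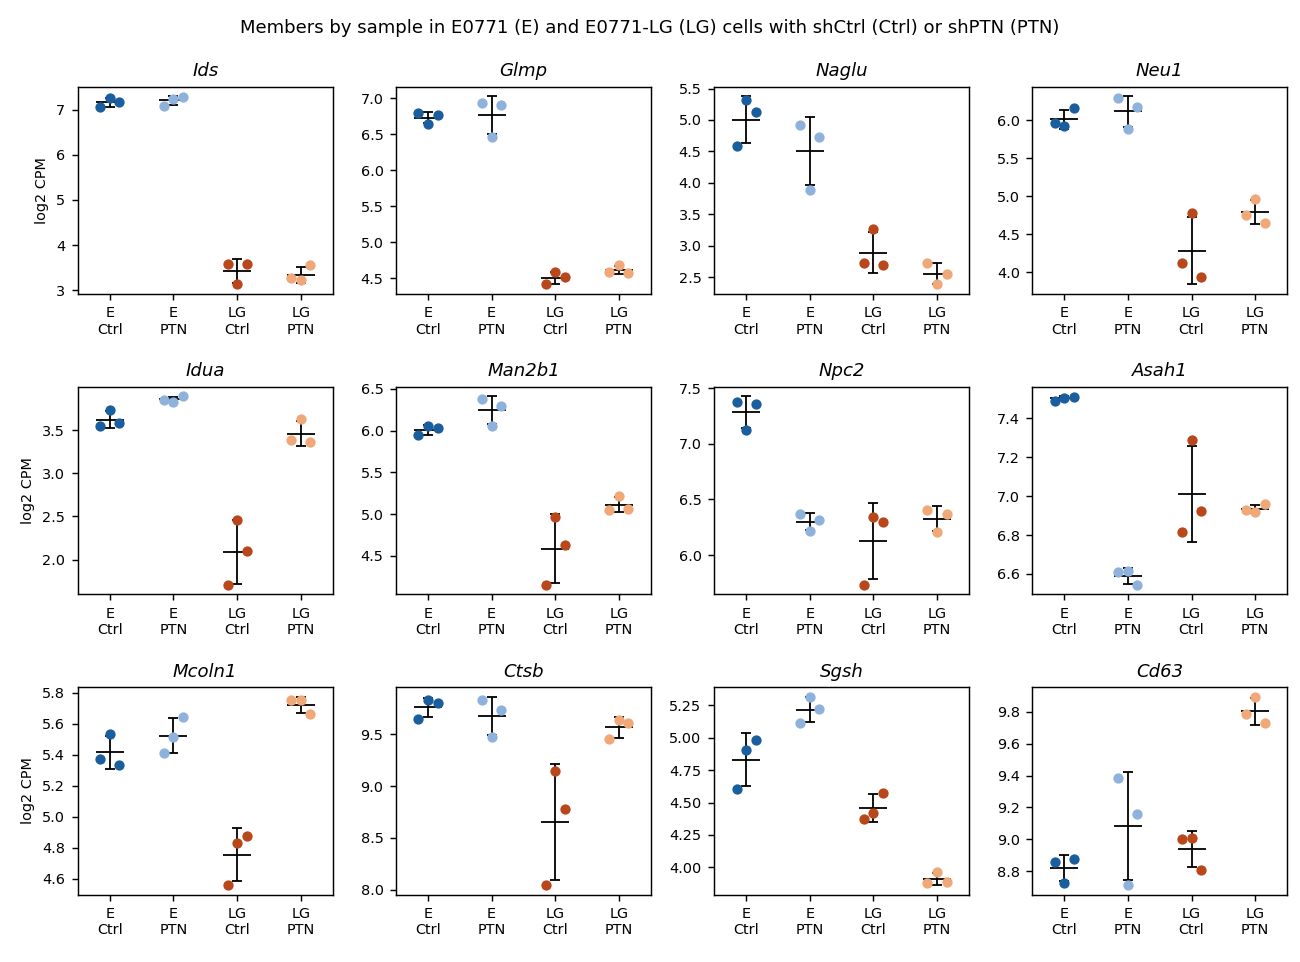
Log2 CPM of 12 lysosomal genes in each sample of both lines with either vector, with lines and bars for the mean and SD of 3 samples. The samples of Ids lie between 3.13 and 3.58 in E0771-LG shCtrl and between 7.06 and 7.26 in E0771 shCtrl cells.

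The lines were also compared in shPTN cells, in samples that the shCtrl comparison did not use. Of 36 genes tested, 24 were lower and 5 higher in E0771-LG shPTN cells, beside 37.7% lower and 26.2% higher of all 10508 genes tested. The median log2 fold change was -0.52 for the lysosomal genes and -0.10 for all genes. By role, 9 of 10 glycosidases, 2 of 6 proteases, 2 of 5 genes of lipid handling, 4 of 6 membrane proteins, 4 of 4 sulfatases and 3 of 3 genes of the proton pump were lower. Those called higher were 1 protease, 1 gene of lipid handling, 1 membrane protein and 2 of 2 regulators. Quantile and median-of-ratios scaling moved the median of all genes by 0.13 and 0.12 and gave medians of -0.43 and -0.40 for the lysosomal genes. Glmp, Naglu, Neu1 and Man2b1 fell by 2.15, 1.96, 1.33 and 1.13. Hexa (-0.27) did not pass after either scaling or with the replicate block. Hexa and Lamp1 (-0.29) did not pass with eBayes without trend and robust or in the fit of all 24 samples. Scarb2 (-0.52) did not pass in that fit, nor Lamp1 after median-of-ratios scaling. The limma adjusted p was 0.0923 for Hexa without E0771 shPTN replicate 1 and 0.0993 for Lamp1 without E0771 shPTN replicate 3. Idua fell by 0.40, or 0.21 after quantile scaling, a change that did not pass after either scaling or with the replicate block, nor without E0771 shPTN replicate 1, 2 or 3 (limma adjusted p of 0.0798, 0.059 and 0.12) or E0771-LG shPTN replicate 1 or 3 (0.0804 and 0.111). Cd63, Tfeb, Ctsl, Asah1 and Grn were higher, by 0.72, 0.68, 0.41, 0.35 and 0.29, but the changes of Ctsl and Grn did not pass after quantile scaling, with eBayes without trend and robust, in the fit of all 24 samples or with the replicate block, nor that of Ctsl without a filter. The count of 5 higher genes was 3 without E0771 shPTN replicate 2 and 3 without E0771-LG shPTN replicate 1, 2 or 3, where the limma adjusted p was 0.0534, 0.0579, 0.11 and 0.0842 for Ctsl and 0.0571, 0.0617, 0.0805 and 0.0678 for Grn. The log2 fold change was 0.20 for Ctsl and 0.17 for Grn without E0771 shPTN replicate 2, and 0.22 and 0.17 after quantile scaling. Markers of other cell types differed between the lines in these samples too. Of 6 fibroblast markers 5 were lower in E0771-LG cells, with Col3a1 at -5.44 and Col1a1 at 12, 3 and 10 reads against 745, 821 and 741, and Dcn was higher, with 34, 61 and 49 reads against 2, 0 and 1. The list summed to 331, 293 and 330 CPM in E0771 and 58.3, 66.2 and 73.4 CPM in E0771-LG shPTN cells. Of the epithelial markers, Krt8 rose by 2.30 and Epcam by 0.82, and Krt18 was called higher, with 117, 150 and 125 reads in E0771-LG against 2, 3 and 0 in E0771 cells. The 7 on the list summed to 115, 98.9 and 108 CPM in E0771 and to 424, 565 and 516 CPM in E0771-LG shPTN cells. Of 4 macrophage markers tested, Cd14 rose by 0.71, Mrc1 was higher with 43, 49 and 41 reads against 6, 9 and 6, Lyz2 fell by 1.99 and Cd68 (-0.14) did not pass, with sums of 48.6, 35.7 and 41.3 CPM and of 18.8, 24 and 26.5 CPM. The T cell marker Cd3d was also higher, with 25, 36 and 22 reads against 0, 3 and 1, while S100a8 (0.70), Fabp4 (1.08) and the endothelial marker Cdh5 (0.78) did not pass. Krt18, Dcn, Mrc1 and Cd3d entered the test through the E0771-LG samples alone, and Col1a1 through the E0771 samples alone. The part of these markers in the result was not tested.

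Within E0771 cells, the share of lysosomal genes that changed with shPTN was near that of all genes. Of 36 genes, 8 passed (22.2%), beside 20.6% of all 10394 genes tested. By direction 4 were higher and 4 lower, beside 8.89% higher and 11.7% lower of all genes, and 28 did not pass. The genes that fell were Npc2, Asah1, Lipa and Scarb2, and those that rose were Gla, Tpp1, Gusb and Ctsa. The median log2 fold change was 0.10 for the lysosomal genes and -0.03 for all genes. This comparison and the line comparison with shCtrl share the E0771 shCtrl samples.

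Npc2, which binds cholesterol in the lysosome, read 7.38, 7.12 and 7.35 log2 CPM in E0771 shCtrl and 6.37, 6.22 and 6.32 in E0771 shPTN cells. Asah1, which splits ceramide, read 7.49, 7.50 and 7.51 with shCtrl and 6.61, 6.61 and 6.54 with shPTN. The groups were well separated for both genes, with log2 fold changes of -0.98 (SE 0.09, limma adjusted p = 1.07e-04) for Npc2 and -0.91 (SE 0.08, limma adjusted p = 3.81e-05) for Asah1. Lipa, which frees cholesterol and fatty acids from their esters, read 6.00, 6.35 and 6.14 with shCtrl and 5.36, 5.55 and 5.37 with shPTN, and fell by 0.74 (limma adjusted p = 0.00164). Scarb2 read 7.19, 7.23 and 7.18 with shCtrl and 6.79, 6.72 and 6.70 with shPTN, and fell by 0.46 (limma adjusted p = 0.00232), a change that did not pass in the fit of all 24 samples. For these 4 genes the shPTN samples were all lower than the shCtrl samples. Of the other genes of lipid handling, Ppt1 (0.17) and Psap (0.10) did not pass, and Psap turned to -0.02 after quantile scaling.

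Of the genes that rose, Gla, the galactosidase that acts on globotriaosylceramide and whose promoter held 2 copies of CACGTG, read 4.89, 4.81 and 4.94 log2 CPM with shCtrl and 5.42, 5.38 and 5.26 with shPTN, and rose by 0.47 (SE 0.11, limma adjusted p = 0.0107). The peptidase Tpp1 read 6.79, 6.83 and 6.59 with shCtrl and 7.16, 6.97 and 7.26 with shPTN, and rose by 0.39 (SE 0.10, limma adjusted p = 0.0194). Both genes were higher in every shPTN sample. The glucuronidase Gusb read 7.00, 6.78 and 6.98 with shCtrl and 7.34, 7.10 and 7.36 with shPTN, and rose by 0.35 (limma adjusted p = 0.0303). Ctsa, the protective protein of Neu1 and Glb1, read 7.45, 7.49 and 7.42 with shCtrl and 7.85, 7.63 and 7.81 with shPTN, and rose by 0.31 (limma adjusted p = 0.0261). The groups did not overlap, and shPTN replicate 2 was the lowest of its group for Gusb, Ctsa and Tpp1 and for 26 of the 36 genes. The count of 4 higher genes was 8 without E0771 shPTN replicate 2, 1 without E0771 shPTN replicate 3, 1 without E0771 shCtrl replicate 3, and 2 without E0771 shCtrl replicate 2 or E0771 shPTN replicate 1. The changes of Gla, Gusb and Ctsa did not pass in the fit of all 24 samples, those of Tpp1, Gusb and Ctsa did not pass with eBayes without trend and robust, and that of Gusb did not pass without a filter on low values. The change of Tpp1 did not pass without E0771 shCtrl replicate 3 (limma adjusted p = 0.0989) or E0771 shPTN replicate 3 (0.101). That of Gusb did not pass without E0771 shCtrl replicate 2 (0.12) or 3 (0.0735) or E0771 shPTN replicate 1 (0.0552) or 3 (0.137), all limma adjusted p. Ctsa passed when E0771 shPTN replicate 2 was left out and in none of the other 5 cases, with limma adjusted p of 0.0622, 0.0633 and 0.113 without shCtrl replicates 1, 2 and 3 and 0.0522 and 0.117 without shPTN replicates 1 and 3.

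Among the markers of other cell types in E0771 cells, Lyz2 rose by 2.23 with shPTN, and the summed level of the 13 macrophage markers was 48.6, 35.7 and 41.3 CPM, with Lyz2 the most abundant and 7 or 8 of the 13 at 0. Of the 5 fibroblast markers tested, Col3a1, Pdgfrb, Pdgfra and Col1a1 rose by 2.83, 1.61, 1.43 and 1.02 with shPTN. Col1a2 was also called higher, at a mean of 1.97 log2 CPM against -0.39 with shCtrl, and entered the test through the shPTN samples. The 6 on the list summed to 74.8, 101 and 86.3 CPM with shCtrl, led by Pdgfra, and 331, 293 and 330 CPM with shPTN, led by Col3a1. Cd68 (-0.92), Cd14 (-0.63), Krt8 (-0.05), Epcam (0.60), Fabp4 (-0.30) and S100a8 (-0.56) did not pass. The part of these markers in the result was not tested.

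**Figure D3:**
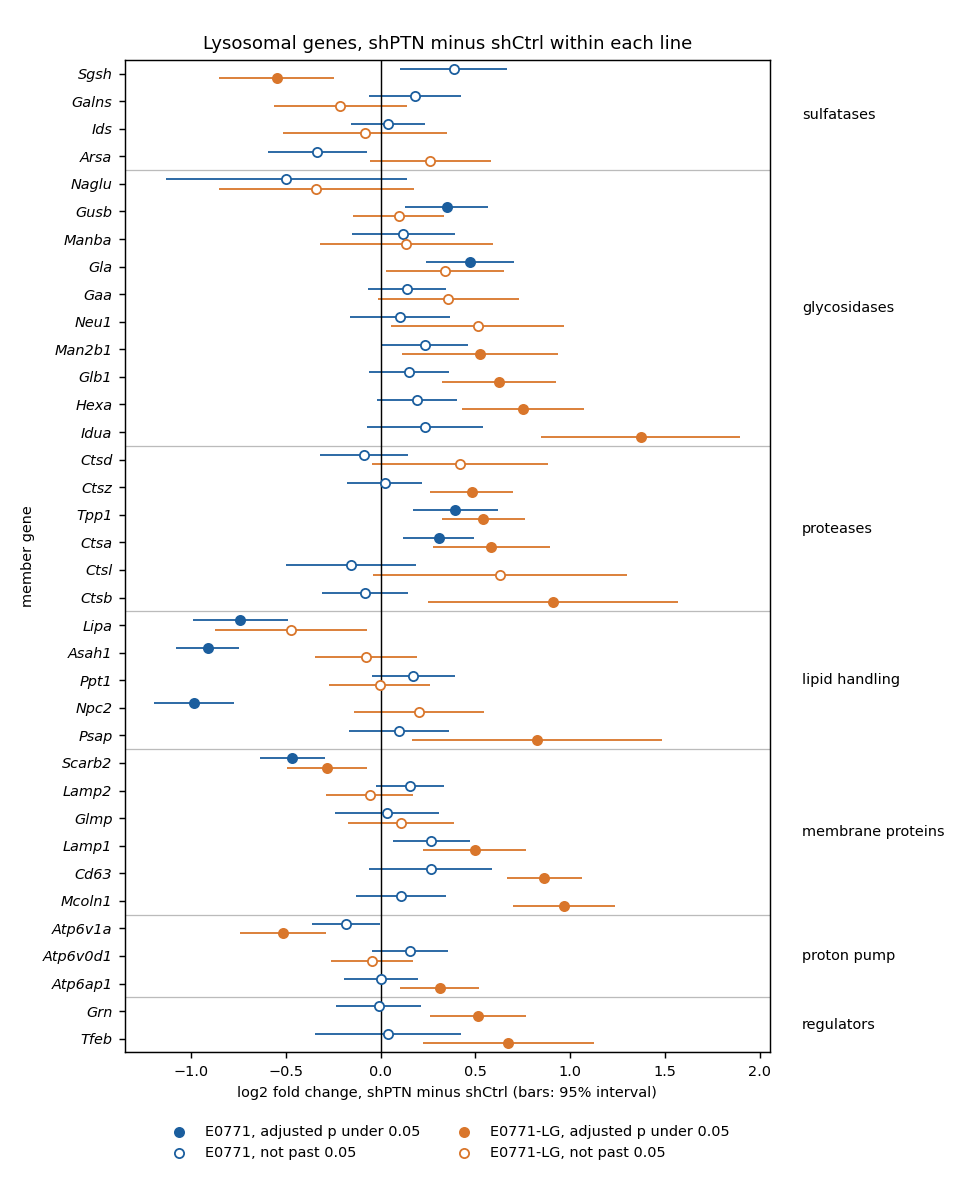
Log2 fold change of each lysosomal gene tested, shPTN minus shCtrl, within E0771 and within E0771-LG cells, grouped by role; bars are 95% confidence intervals and filled points have an adjusted p under 0.05. Npc2 and Asah1 lie at -0.98 and -0.91 in E0771 cells and at 0.20 and -0.08 in E0771-LG cells, where Asah1 turned to a positive sign after quantile scaling.

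Within E0771-LG cells, RNA levels of many lysosomal genes were higher with shPTN, among them proteases, glycosidases and both regulators. Of 36 genes, 15 were higher and 3 lower, beside 24.3% higher and 22.1% lower of all 10405 genes tested. The median log2 fold change was 0.35 for the lysosomal genes and 0.05 for all genes. By role, 4 of 6 proteases, 4 of 10 glycosidases, 3 of 6 membrane proteins, 2 of 2 regulators, 1 of 5 genes of lipid handling and 1 of 3 genes of the proton pump were higher. The summed level of the 39 genes was 7303, 7602 and 7378 CPM with shPTN, above all 3 shCtrl samples. The E0771-LG shCtrl samples are also those of the line comparison.

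Idua read 1.71, 2.46 and 2.10 log2 CPM with shCtrl and 3.38, 3.62 and 3.36 with shPTN, and rose by 1.37 (SE 0.24, limma adjusted p = 0.00109). The groups were fully separated, and the E0771 shCtrl samples lay between 3.55 and 3.73. Mcoln1, which releases calcium from the lysosome and whose promoter held 2 copies of CACGTG, read 4.56, 4.83 and 4.87 with shCtrl and 5.75, 5.75 and 5.66 with shPTN, and rose by 0.97 (SE 0.12, limma adjusted p = 1.92e-04). Cd63 read between 8.81 and 9.01 with shCtrl and 9.79, 9.89 and 9.73 with shPTN, and rose by 0.86 (SE 0.09, limma adjusted p = 7.39e-05). For Mcoln1 and Cd63 the groups did not overlap and the spread within each group was small. Hexa, a subunit of the enzyme that breaks down GM2 ganglioside, read 5.49, 6.10 and 5.94 with shCtrl and 6.58, 6.54 and 6.66 with shPTN, and rose by 0.75 (SE 0.15, limma adjusted p = 0.00206).

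The cathepsin Ctsb read 8.04, 9.15 and 8.78 log2 CPM with shCtrl and 9.45, 9.64 and 9.60 with shPTN, and rose by 0.91 (SE 0.27, limma adjusted p = 0.0352). Psap read 8.29, 9.38 and 9.11 with shCtrl and 9.76, 9.74 and 9.76 with shPTN, and rose by 0.82 (SE 0.27, limma adjusted p = 0.0483). For both genes shCtrl replicate 1 was far below the other samples, the groups did not overlap, and the change did not pass after quantile scaling, nor did that of Psap with a pseudocount of 1. Without E0771-LG shCtrl replicate 1 the log2 fold change was 0.60 for Ctsb and 0.51 for Psap, and both passed. Without E0771-LG shCtrl replicate 3 the limma adjusted p was 0.0845 for Ctsb and 0.0908 for Psap. Without E0771-LG shPTN replicates 1, 2 and 3 it was 0.0693, 0.0708 and 0.0833 for Ctsb and 0.111, 0.0819 and 0.102 for Psap. Tfeb read 3.19, 3.91 and 3.55 with shCtrl and 3.99, 4.27 and 4.42 with shPTN, and rose by 0.67 (limma adjusted p = 0.0201). Grn read 8.69, 9.17 and 8.83 with shCtrl and 9.41, 9.43 and 9.39 with shPTN, and rose by 0.51 (limma adjusted p = 0.0044). All shPTN samples were above all shCtrl samples for both regulators. The other 7 genes that rose were Glb1 (0.63), Ctsa (0.58), Tpp1 (0.54), Man2b1 (0.53), Lamp1 (0.50), Ctsz (0.48) and Atp6ap1 (0.31). The changes of Man2b1 and Atp6ap1 did not pass with eBayes without trend and robust, nor that of Man2b1 without a filter. Without E0771-LG shCtrl replicate 3 the limma adjusted p was 0.0515 for Tfeb, 0.0785 for Man2b1 and 0.0641 for Atp6ap1, and without E0771-LG shCtrl replicate 1 it was 0.0848 for Man2b1, with a log2 fold change of 0.31. Without E0771-LG shPTN replicates 1, 2 and 3 it was 0.0747, 0.136 and 0.0862 for Man2b1 and 0.0632, 0.0685 and 0.0551 for Atp6ap1, and without replicates 2 and 3 it was 0.0747 and 0.0886 for Tfeb.

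The 3 genes that fell with shPTN in E0771-LG cells had different roles. Sgsh read 4.37, 4.42 and 4.58 log2 CPM with shCtrl and 3.88, 3.96 and 3.88 with shPTN, and fell by 0.55 (SE 0.14, limma adjusted p = 0.00808), a change that did not pass in the fit of all 24 samples. Atp6v1a read 7.82, 7.67 and 7.53 with shCtrl and 7.21, 7.05 and 7.22 with shPTN, and fell by 0.52 (SE 0.10, limma adjusted p = 0.00238). The promoters of both held 1 copy of CACGTG, and the highest shPTN sample stayed under the lowest shCtrl sample. Scarb2 read 6.41, 6.55 and 6.54 with shCtrl and 6.22, 6.22 and 6.21 with shPTN, and fell by 0.28 (limma adjusted p = 0.0316), a change that did not pass after quantile scaling or in the fit of all 24 samples. The limma adjusted p of Scarb2 was 0.0805 and 0.114 without E0771-LG shCtrl replicates 2 and 3, and 0.0659, 0.0869 and 0.093 without E0771-LG shPTN replicates 1, 2 and 3. Ids and Glmp, with the largest differences between the lines, did not pass the test here, with log2 fold changes of -0.08 (95% interval -0.51 to 0.35) and 0.11 (-0.17 to 0.39). Ctsc, too low to be tested, had 2, 8 and 3 reads with shCtrl and 29, 16 and 40 with shPTN. The epithelial markers Krt8 and Epcam rose by 1.57 and 0.46 in this comparison, and Krt18 was called higher with 117, 150 and 125 reads with shPTN against 13, 18 and 16 with shCtrl. Markers of macrophages differed as well, with Cd68 and Lyz2 higher by 2.17 and 1.27 and Cd14 and Mrc1 lower by 1.15 and 0.81. The summed level of the epithelial markers was 158, 204 and 164 CPM with shCtrl and 424, 565 and 516 CPM with shPTN, with Krt8 the most abundant, and that of the macrophage markers was 25, 27.7 and 26.6 CPM with shCtrl and 18.8, 24 and 26.5 CPM with shPTN, with 7 to 9 of the 13 at 0. Of 6 fibroblast markers 1 was higher and 2 lower, with sums of 92, 145 and 107 CPM and 58.3, 66.2 and 73.4 CPM led by Pdgfra. Fabp4 fell by 2.46, to 1.18, 3.93 and 3.04 CPM, Cd3d was called higher with 25, 36 and 22 reads against 8, 16 and 3, and S100a8 (0.43) and Cdh5 (0.22) did not pass. Krt18 and Cd3d entered the test through the shPTN samples alone, and Col1a1, 1 of the 2 lower fibroblast markers, through the shCtrl samples alone. The part of all these markers in the result was not tested.

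The shPTN effect was compared between the lines by an interaction term over the 12 cell samples. It was higher in E0771-LG than in E0771 cells for 11 of the 36 lysosomal genes and lower for 1, beside 18.3% and 15.7% of all 10600 genes tested. In either direction 33.3% of the lysosomal genes and 34.0% of all genes differed. The median difference was 0.28 for the lysosomal genes and 0.08 for all genes. Npc2 differed most, by 1.19 (SE 0.19, limma adjusted p = 5.37e-04), with 5.73, 6.34 and 6.30 log2 CPM in E0771-LG shCtrl and 6.41, 6.21 and 6.37 in E0771-LG shPTN cells. These groups overlapped, whereas the E0771 groups did not. Asah1 differed by 0.84 (limma adjusted p = 8.17e-04), with 6.82, 7.29 and 6.92 in E0771-LG shCtrl and 6.93, 6.92 and 6.96 in E0771-LG shPTN cells, groups that overlapped. Sgsh was the gene with the lower effect, at -0.93 (SE 0.18, limma adjusted p = 0.0015), with 4.60, 4.91 and 4.99 in E0771 shCtrl and 5.12, 5.31 and 5.22 in E0771 shPTN cells. Exons of Card14 on the opposite strand cover 21.6% of the exon bases of Sgsh. The count of 11 was 18 without E0771-LG shCtrl replicate 2, 4 without E0771 shCtrl replicate 3, 6 without E0771 shPTN replicate 2, 7 without E0771-LG shCtrl replicate 3 and 5 without E0771-LG shPTN replicate 2, and the count of 1 was 2 without E0771-LG shCtrl replicate 3. In the fit of all 24 samples 7 of the 12 genes did not pass, Sgsh among them, which left counts of 5 and 0, and with eBayes without trend and robust 5 of the 12 did not. The differences of Npc2 and Asah1 passed under all alternatives run. The shPTN effect on markers of other cell types also differed between the lines. Of 6 fibroblast markers 4 had a lower effect in E0771-LG cells, with Col3a1 at -3.29, Pdgfrb at -2.72, Pdgfra at -2.10 and Col1a1, which had 12, 3 and 10 reads in E0771-LG shPTN cells, and Dcn a higher effect. The effect was also higher for Krt8 (1.62), Cd68 (3.09) and Krt18 and lower for Lyz2 (-0.96). Dcn and Krt18 had at most 4 reads in any E0771 sample. The test was not passed by Epcam (-0.14), Mrc1 (-0.95), Cd14 (-0.52), Fabp4 (-2.16), S100a8 (0.99), Cd3d (1.22) and Cdh5 (-1.14). The part of these markers in the result was not tested.

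Other genes of the lysosomal pathway were counted from written lists, and their shares stand beside 19.2% higher and 35.3% lower of all genes tested between the lines with shCtrl. Of 40 other lysosomal genes tested, 4 were higher (10%) and 24 lower (60%) in E0771-LG than in E0771 cells with shCtrl, with a median of -0.58. Among them the mannosidase Man2b2 fell by 2.88 and the cathepsin Ctso fell by 2.77, whereas Tmem192 rose by 0.50 and the thiol reductase Ifi30 by 0.47. Of 14 other genes of the proton pump, 1 was higher and 7 lower (50%), with Atp6ap2 at -1.37, Atp6v1f at -1.32 and Atp6v0a1 at 0.42. Of 9 genes of mannose 6-phosphate sorting, 3 were higher (33.3%) and 4 lower (44.4%), with the adaptor Gga3 at 0.88. The lower genes on this list included Lrpap1 (-1.79), which is known as a chaperone of receptors of the LDL receptor family. Of 16 MiT/TFE factors and genes of nutrient sensing at the lysosome, 2 were higher (12.5%) and 6 lower (37.5%), shares near or below those of all genes, with Mitf at 0.499 times the E0771 level. Of 18 autophagy genes 3 were higher (16.7%) and 11 lower (61.1%), with Map1lc3a at -2.05, Gabarapl1 at -1.12 and the cargo receptor Sqstm1 at 0.54.

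With shPTN in E0771 cells, where 8.89% of all genes tested were higher and 11.7% lower, 7 of the 40 other lysosomal genes were higher (17.5%) and 1, Plbd2 (-0.29), was lower. Igf2r, the large mannose 6-phosphate receptor, rose by 1.22 and was 1 of 4 genes of 10 on the sorting list that passed (40%), all higher, with Lrpap1 (0.29) among them. Of the other pump genes Atp6ap2 (0.43) passed. In the list of MiT/TFE factors and nutrient sensing 3 of 16 were higher (18.8%) and 1 lower, with Flcn at 0.66, Rragd at 0.64 and Mitf at -0.92, and the 3 of 18 autophagy genes that passed (16.7%) were higher. With shPTN in E0771-LG cells, where 24.3% of all genes tested were higher and 22.1% lower, 12 of 40 other lysosomal genes were higher (30%) and 1, the cholesterol transporter Npc1 (-0.72), was lower. The cathepsin Ctsh rose by 1.82 and Ifi30 by 0.92. Of 14 other pump genes 8 were higher (57.1%) and 2 lower (14.3%), with Atp6v1f at 0.97, Atp6v1g1 at 0.82 and Atp6v0a2 at -0.70. Of 9 sorting genes 2 were higher (22.2%) and 1, Gnptab (-0.40), lower. Of 16 factors and nutrient-sensing genes 4 were higher (25%) and 3 lower (18.8%), with Lamtor2 at 0.85 and Rptor at -0.74, and of 18 autophagy genes 5 were higher (27.8%) and 6 lower (33.3%), with Map1lc3a at 1.02 and Atg9a at -0.73. In E0771-LG cells the shares of higher genes on the sorting, nutrient-sensing and autophagy lists were near that of all genes.

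In 4T1 tumors, none of the 39 lysosomal genes passed the test between 3B10 and C44. The count was 0 at an adjusted p under 0.05 by limma, as it was for all 11467 genes tested (0%), and 8 of the 39 had an unadjusted p under 0.05, beside 6.27% of all genes; voom was not run, since no reads were recovered for these samples. The mean was lower with 3B10 for 38 of the 39 genes (97.4%) and for 48.4% of all genes tested, and the median log2 fold change was -0.21 for the lysosomal genes and 0.01 for all genes. Mcoln1 (-0.01), 1 of these 38, turned to a positive sign after quantile scaling. For 12 of the 39, every 3B10 tumor lay below every C44 tumor, beside 4.42% of all genes. With 3 samples against 3, the smallest two-sided p of an exact permutation test is 0.1.

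Gm2a read 7.28, 7.21 and 7.25 in 4T1 tumors with C44 and 6.76, 6.87 and 6.82 with 3B10, on the log2 length-normalized scale. The groups did not overlap and each had a small spread, with a log2 fold change of -0.43 (SE 0.10, limma adjusted p = 0.706, exact permutation p = 0.1). The aspartic protease Ctsd read 10.65, 10.60 and 10.50 with C44 and 10.16, 10.31 and 10.11 with 3B10, a log2 fold change of -0.39 (SE 0.11, limma adjusted p = 0.722, exact permutation p = 0.1). Its groups did not overlap either, and 34.4% of its exon bases are also exons of Gm49369 on the same strand. By role, an unadjusted p under 0.05 was reached by 5 of 7 proteases and 3 of 6 genes of lipid handling, and by no gene of the other roles. Cd63 was the 1 gene with a higher mean (0.11, limma adjusted p = 0.953).

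Mean values of immune and epithelial markers also differed between these tumors, though none passed the test by limma. The summed level of 13 macrophage markers, of which Lyz2 was the most abundant and none was at 0, was 13943, 10891 and 13417 with C44 and 6501, 11038 and 7017 with 3B10. The 3B10 tumors 1 and 3 were low, and 3B10 tumor 2 was in the range of the C44 tumors. The median log2 fold change of these markers was -0.45, and 5 of 13 had an unadjusted p under 0.05. The 4 T cell markers had a median of -1.34, all 4 with an unadjusted p under 0.05, and summed to 57.5, 78.8 and 85.2 with C44 and 38.6, 42.2 and 12.1 with 3B10, with Cd3g the most abundant. The 6 epithelial markers tested had a median of 0.67, 5 with an unadjusted p under 0.05, and the 7 on the list summed to 3217, 3489 and 3466 with C44 and 4969, 4509 and 5120 with 3B10, with Krt18 the most abundant. Medians were -0.68 for 4 neutrophil, -0.25 for 4 endothelial and 0.29 for 6 fibroblast markers, and Ptprc stood at -0.72. The unadjusted p by limma was 0.0456 for S100a8, 0.0592 for S100a9, 0.0222 for Csf3r and 0.0167 for Retnlg. It was 0.00666 for Ptprc, 0.0407 for Pdgfra (-0.46), 0.012 for Dcn (0.66) and at least 0.301 for the other fibroblast markers and the endothelial markers. The summed level of the 39 lysosomal genes was 17746, 16971 and 16090 with C44 and 14457, 14764 and 13976 with 3B10. The part of these markers in the lower values of the lysosomal genes was not tested, and in bulk tumors fewer cells of a type and less RNA per cell cannot be told apart. Of the other lysosomal genes, the cathepsins Ctss and Ctsk, at -0.71 (limma adjusted p = 0.722) and 1.51 (limma adjusted p = 0.722), had the smallest unadjusted p.

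**Figure D4:**
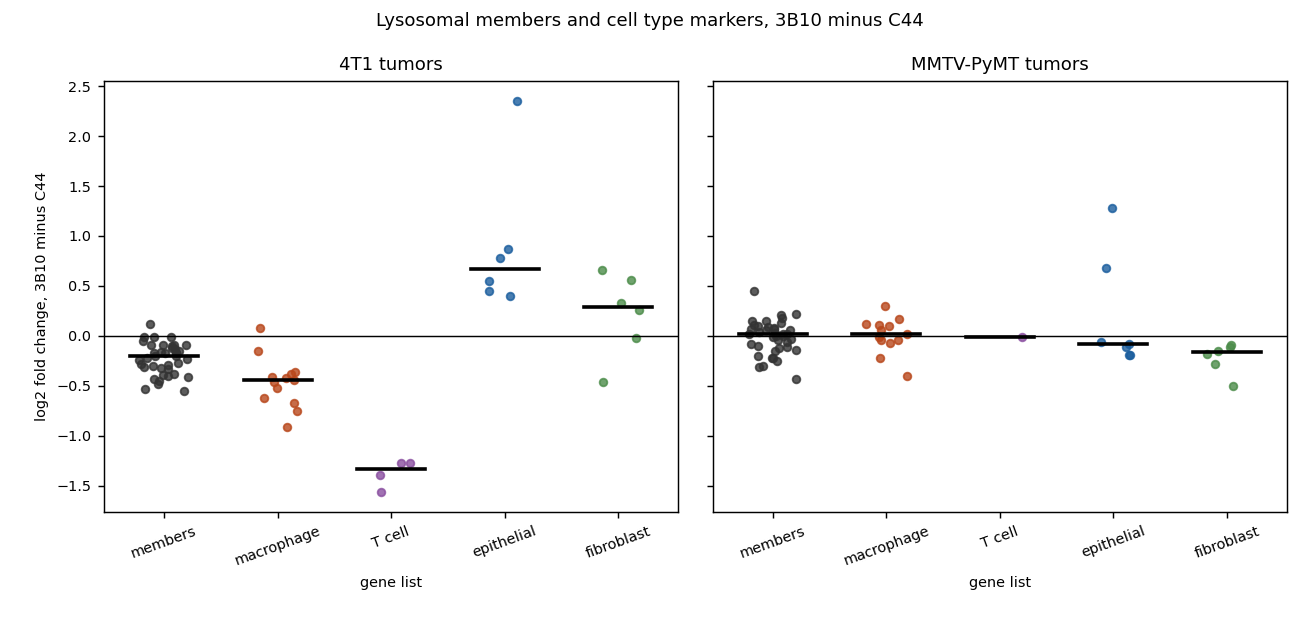
Log2 fold change, 3B10 minus C44, of each lysosomal gene (members) and of markers of macrophages, T cells, epithelial cells and fibroblasts in 4T1 and MMTV-PyMT tumors; each point is a gene and black lines are medians. In 4T1 tumors the medians are -0.21 for the lysosomal genes, -0.45 for macrophage and 0.67 for epithelial markers.

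In MMTV-PyMT tumors, too, 0 of 39 lysosomal genes passed the test between 3B10 and C44 by limma, as did 0 by voom and 0% of all 11361 genes tested by limma. An unadjusted p under 0.05 was found for 2 of the 39, beside 2.70% of all genes. The median log2 fold change was 0.01 and turned to -0.01 and -0.03 after quantile and median-of-ratios scaling, and the median of all genes was 0.05. For 2 genes all 3B10 tumors were above, and for 2 all were below, all C44 tumors, beside 8.34% of all genes in either direction. Ids read 6.04, 6.19 and 6.39 log2 CPM with C44 and 5.94, 5.77 and 5.61 with 3B10, with a log2 fold change of -0.43 (SE 0.15, limma adjusted p = 1, exact permutation p = 0.1). Gusb read 6.31, 6.27 and 6.28 with C44 and 6.73, 6.46 and 7.01 with 3B10, with a log2 fold change of 0.45 (SE 0.16, limma adjusted p = 1, exact permutation p = 0.1). The groups did not overlap for either gene, and the 3B10 tumors varied more than the C44 tumors in Gusb. The macrophage markers had a median of 0.01 and the epithelial markers of -0.08, with 0 of 13 and 1 of 7 at an unadjusted p under 0.05. None of the other lists of lysosomal, pump, sorting, nutrient-sensing and autophagy genes had a gene with an adjusted p under 0.05 by limma in either tumor model. At an unadjusted p under 0.05 these lists held, in that order, 6 of 45, 0 of 15, 1 of 9, 1 of 16 and 0 of 18 genes in 4T1 tumors, beside 6.27% of all genes. In MMTV-PyMT tumors they held 1 of 44, 0 of 15, 0 of 10, 1 of 16 and 0 of 18 genes, beside 2.70% of all genes.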

How the data were processed

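The authors processed reads against mm10 in a pipeline of HISAT2 and StringTie and used Rsubread and edgeR; the submitters' processing notes also name featureCounts, edgeR and limma, and versions are not given in the sources used here. The deposited values are log2 values for 12091 genes in 24 samples, and the step that made them is not given in the sources used here. For 18 samples 100% of values gave whole reads, within 0.05 reads, as log2 CPM with an offset of 0.5 reads; in 4T1 samples 10.9% to 11.3% of values did. Across the 12091 genes the mean log2 value had a Spearman correlation with exon length of -0.20 in 4T1 samples and of 0.26, 0.24 and 0.18 in MMTV-PyMT, E0771 and E0771-LG samples, so 4T1 values were taken as normalized for length; genes are not independent replicates. Because the values are log2 values, the count pipeline of the authors was replaced by limma 3.58.1 in R 4.3.3 (lmFit, eBayes with trend and robust) on the samples of each comparison, with Benjamini-Hochberg adjustment over all genes tested and a threshold of 0.05. The methods describe 3 biological replicates per group.

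Values per sample are given for the genes, at most 6 per direction, that changed most among those past the threshold in 3 cell comparisons (lines with shCtrl, shPTN in each line), the 2 with the smallest unadjusted p in each tumor comparison, and Ptn; values of Grn, Tfeb, Ctsc and the markers, and values of named genes in other groups, were added after they were seen. Of other lists up to 3 genes per direction, or 2 in tumors, are named. A gene that this rule names is not reported here. The members and lists were chosen with earlier results of these data known. Alternatives were filters, pseudocounts of 1 and 0.1, the eBayes setting, a fit of all 24 samples, quantile and median-of-ratios scaling, voom on the recovered reads, a replicate block, stricter thresholds and leaving out each sample. Positions and exon lengths are from GENCODE M21 (GRCm38), promoters from RefSeq, plots from matplotlib 3.10.9 in Python 3.11.15.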

Additional observations from a re-analysis of the deposited data

Results flagged for a closer look

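The effect of shPTN on 12 of 36 lysosomal genes (33.3%) differed between E0771-LG and E0771 cells by the limma interaction term, a share near the 34.0% of all 10600 genes tested. The difference, E0771-LG minus E0771 in log2 fold change, was 1.19 for Npc2 and 0.84 for Asah1, which fell in E0771 cells. It was 1.14 for Idua, 0.99 for Ctsb, 0.86 for Mcoln1, 0.60 for Cd63, 0.56 for Hexa, 0.52 for Grn, 0.48 for Glb1 and 0.46 for Ctsz, which rose in E0771-LG cells. Arsa differed by 0.59 without passing the test in either line, and Sgsh, which fell in E0771-LG cells, by -0.93. In the fit of all 24 samples Sgsh, Arsa, Hexa, Cd63, Grn, Glb1 and Ctsz did not pass, and with eBayes without trend and robust Arsa, Hexa, Cd63, Grn and Glb1 did not.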

How the results depend on the processing

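The values given for 6 genes in the comparison of lines with shCtrl kept their direction and side of the threshold in all 96 values under the alternatives. For the shPTN effect 109 of 128 did in E0771 and 125 of 144 in E0771-LG cells, 19 in each no longer passed, and 0 were reversed. In the fit of all 24 samples Gla (0.0645), Gusb (0.216), Ctsa (0.178) and Scarb2 (0.22) in E0771 and Sgsh (0.0873) and Scarb2 (0.322) in E0771-LG cells did not pass, with the limma adjusted p given in parentheses. In tumors all 30 values (4T1) and 32 (MMTV-PyMT) stayed on their side of the threshold.

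Of the counts of lysosomal genes called, the 0 higher between lines with shCtrl became 1 without a filter and 1 with either scaling. The 5 higher between lines with shPTN became 3 with eBayes without trend and robust, 3 in the fit of all 24 samples, 3 at an adjusted p under 0.01 and 2 at a log2 fold change of at least 0.5. The 4 higher with shPTN in E0771 cells became 1, 1, 0 and 0 in the same order, and the 3 lower in E0771-LG cells became 1 in the fit of 24 samples. The interaction counts of 11 and 1 became 6 with eBayes without trend and robust, 5 and 0 in the fit of 24 samples, 4 at an adjusted p under 0.01, and the 1 became 2 with either scaling. The cause was not tested.

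Leaving out each sample gave 0 to 0 higher and 25 to 31 lower between lines with shCtrl, 3 to 6 and 22 to 25 with shPTN, 1 to 8 and 4 to 5 for shPTN in E0771, 10 to 20 and 2 to 4 for shPTN in E0771-LG, 4 to 18 and 1 to 2 for the interaction, and 0 to 0 in both tumor models. The libraries behind the widest ranges for shPTN in E0771 cells (4 higher) were E0771 shPTN replicate 2 (8 without it), E0771 shCtrl replicate 3 and E0771 shPTN replicate 3 (1 without each).

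Whether replicate numbers pair the samples was not settled, since 3 correlations per comparison are too few to decide it. Same-numbered samples had deviations that correlated at between -0.33 and 0.44. No comparison had all 3 above 0.1, and not every sample correlated best with its own number. The main fits used no replicate block. With the replicate block the counts of higher and lower genes were 0 and 29 between lines with shCtrl, 3 and 22 with shPTN, 6 and 4 for shPTN in E0771, 19 and 4 for shPTN in E0771-LG, 10 and 1 for the interaction, and 0 in both tumor models. The depth of the 4T1 samples is unknown, and 3 genes were too low to test in the cells.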
